A study of Mus musculus with 6 samples.

Results

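The elastic fibre and microfibril genes described here were the 10 rows, of 30510 in the count table, that carried the symbols of the fibrillins Fbn1 and Fbn2, the latent TGF-beta binding proteins Ltbp1, Ltbp2, Ltbp3 and Ltbp4, the fibulins Fbln1 and Fbln2, and the lysyl oxidases Lox and Loxl1. The rule used their names and no measured value, but the set was proposed with earlier results of these data known. No symbol had a further row with a transcript suffix. Retinal total RNA was sequenced from 2 inbred mouse strains labelled wild type, C57BL/6J (B6) and DBA/2J (D2), with 3 libraries per strain from mice aged 60 to 100 days. D2 is a pigmented strain that develops a pigmentary glaucoma with age, and the labels name no treatment. Retinas of both eyes were collected from 10 am to noon, and RNA integrity numbers lay between 9.1 and 9.5. Whether each library came from a mouse of its own is not stated in the labels, so the p-values reflect how far these libraries were spread, and that spread may be technical.

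Microfibrils are extracellular threads built of fibrillin. They carry the latent TGF-beta binding proteins, which hold TGF-beta in an inactive complex outside the cell, and they serve as the scaffold on which elastin is laid down and cross-linked by lysyl oxidases, with fibulins as linkers. In the eye, elastin-free microfibrils form the zonule that suspends the lens and are secreted by the ciliary epithelium, which borders the retina, and microfibrils are also found in vessel walls and in Bruch's membrane.

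Of the 10 genes, 5 fell in D2 and none rose. Fbln1 fell 7.46-fold, Ltbp2 5.76-fold, Fbn1 2.73-fold, Ltbp1 2.54-fold and Fbn2 1.82-fold, and in each of these 5 genes the 3 D2 libraries lay below the 3 B6 libraries. Ltbp3, Ltbp4, Fbln2 and Loxl1 did not pass the test, and Lox had too few counts to enter it. The test was the quasi-likelihood test of edgeR, adjusted by Benjamini-Hochberg, used for each adjusted p given here unless another tool is named. Standard errors of log2 fold changes were worked back from this test. Each is the absolute log2 fold change divided by the square root of the F statistic. Of all 18588 tested genes, 15.3% fell and 14.5% rose in D2 past an adjusted p of 0.05, and 29.7% passed in either direction. The D2 libraries lay wholly below the B6 libraries in 20.9% of tested genes, and 2.69% fell by 2-fold or more, as did 4 of the members. The median log2 fold change was -0.86 over the 9 tested members and 0.0046 over all tested genes. Levels are CPM, counts relative to the library total and scaled between libraries, and fold changes are D2 against B6. In whole retina a lower level can come from fewer cells of a type or from less RNA per cell, which cannot be told apart here.

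The plot of levels by library shows the members side by side.

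**Figure D1:**
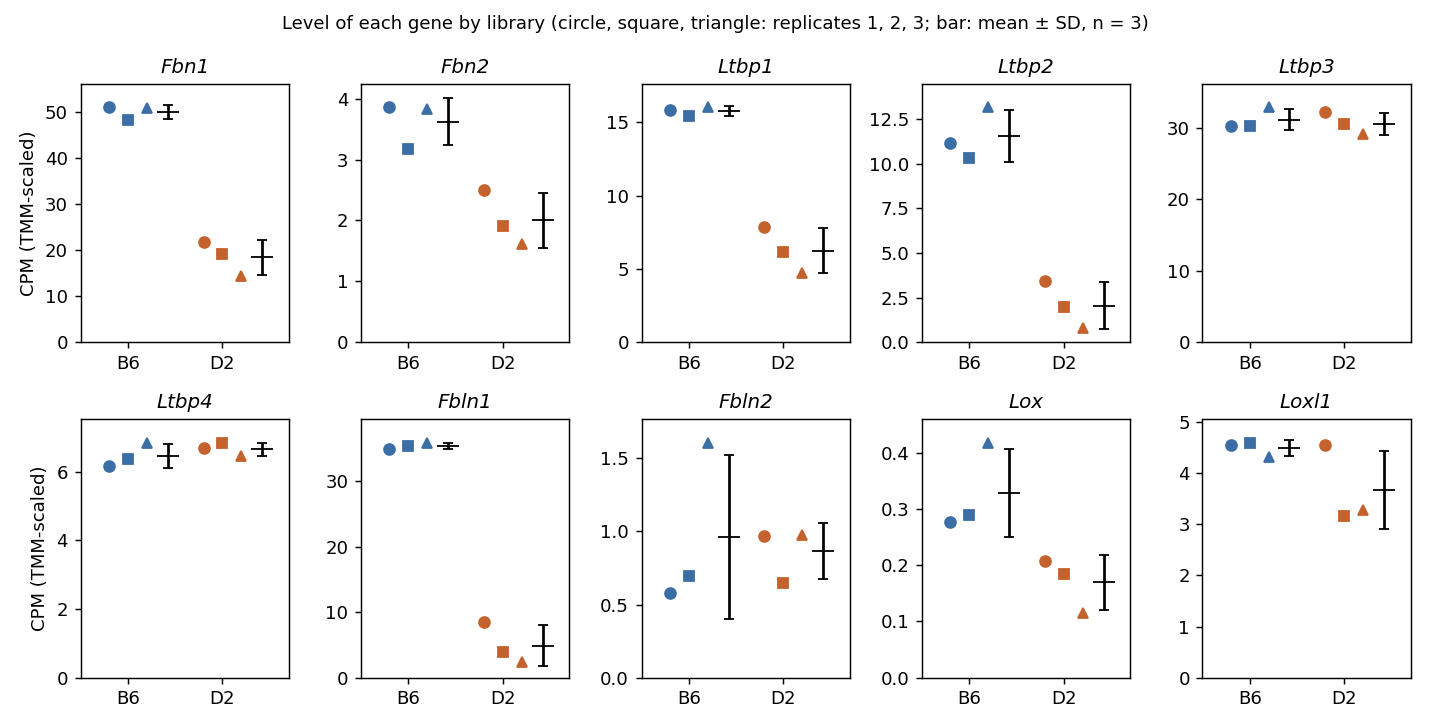
Each panel plots the CPM of 1 gene (vertical axis, from 0) in the 3 B6 and 3 D2 libraries, with the mean and SD as a black bar. In Fbn1, Fbn2, Ltbp1, Ltbp2, Fbln1 and Lox the D2 libraries lie below the B6 libraries, with Fbln1 at 34.9 to 35.9 CPM in B6 against 2.36 to 8.42 CPM in D2, while those of Ltbp3, Ltbp4, Fbln2 and Loxl1 overlap.

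Fbn1 (chromosome 2, 125300594 to 125507993, build mm10, as are all gene positions here) encodes fibrillin-1, the main fibrillin of adult tissue, whose human gene is mutated in Marfan syndrome with dislocated lenses. Its level was 51.1, 48.3 and 50.8 CPM in B6 replicates 1 to 3 and 21.8, 19.3 and 14.4 CPM in D2 replicates 1 to 3. Every D2 library held less than 44% of the B6 mean, at 43.5%, 38.5% and 28.7%. The means were 50.1 ± 1.52 CPM in B6 against 18.5 ± 3.76 CPM in D2 (SD, n = 3), a log2 fold change of -1.45 ± 0.09 (standard error; adjusted p = 1.70e-08). On the opposite strand Gm9913 overlaps 20.1% of the exon bases of Fbn1. Whether the counting used strand is not stated in the sources at hand, so reads in the overlap cannot be told apart. The B6 libraries held 84, 85 and 60 counts of Gm9913 and the D2 libraries 18, 20 and 19, against 1582 to 2210 counts of Fbn1 in B6.

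Fbn2 (chromosome 18, 58008623 to 58210487) encodes fibrillin-2, which is known mainly from developing tissue. Its level was 3.86, 3.18 and 3.82 CPM in B6 and 2.50, 1.91 and 1.61 CPM in D2. The strains did not overlap, with 3.18 CPM in the lowest B6 library and 2.50 CPM in the highest D2 library. The means were 3.62 ± 0.384 CPM in B6 against 2.00 ± 0.450 CPM in D2 (SD of 3 libraries), and the log2 difference was -0.86 ± 0.16 (adjusted p = 0.000859). These values rest on 119 to 167 counts per library in B6 and 56 to 72 in D2.

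The 4 latent TGF-beta binding proteins split evenly between genes that fell and genes that did not pass. Ltbp1 (chromosome 17, 75005568 to 75392512) encodes the binding protein first found in the latent TGF-beta complex. Its level was 15.9, 15.4 and 16.0 CPM in B6 and 7.83, 6.18 and 4.75 CPM in D2. All D2 libraries were at 49.7% of the B6 mean or lower. The log2 fold change was -1.35 ± 0.12 (adjusted p = 4.71e-07), with means of 15.8 ± 0.313 CPM in B6 against 6.25 ± 1.54 CPM in D2 (SD, n = 3).

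Ltbp2 (chromosome 12, 84783212 to 84876532) encodes the family member that does not bind latent TGF-beta, and its human gene is mutated in primary congenital glaucoma and in lens dislocation. Its level was 11.2, 10.4 and 13.2 CPM in B6 and 3.43, 1.97 and 0.777 CPM in D2. The strains did not overlap, and relative to their mean the D2 libraries were spread more widely than the B6 libraries, with 99, 64 and 27 counts in D2 replicates 1 to 3. The means were 11.6 ± 1.45 CPM in B6 against 2.06 ± 1.33 CPM in D2 (SD of 3 libraries), and the log2 difference was -2.53 ± 0.26 (adjusted p = 2.78e-06). DESeq2, another tool, gave Ltbp2 a wider standard error, 0.57 around a log2 fold change of -2.50. The antisense gene D030025P21Rik overlaps 9.34% of its exon bases, and it had 30 to 38 counts per library in B6 and 10, 2 and 2 in D2.

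Ltbp3 (chromosome 19, 5740904 to 5758532) also encodes a carrier of latent TGF-beta, known from mice for its role in bone growth and from humans for tooth enamel. Its level was 30.3, 30.3 and 32.9 CPM in B6 and 32.2, 30.5 and 29.1 CPM in D2, so that the strains overlapped. The log2 fold change was -0.03 ± 0.05 (adjusted p = 0.754). Ltbp4 (chromosome 7, 27305136 to 27337692) encodes a binding protein needed for elastic fibre assembly, whose human gene is mutated in a form of cutis laxa. Its level was 6.15, 6.38 and 6.85 CPM in B6 and 6.69, 6.82 and 6.44 CPM in D2. The strains overlapped here too (log2 fold change 0.05 ± 0.09, adjusted p = 0.747).

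Fbln1 (chromosome 15, 85205949 to 85286535) encodes fibulin-1, a secreted glycoprotein of basement membranes and elastic fibres. Its level was 34.9, 35.4 and 35.9 CPM in B6 and 8.42, 3.87 and 2.36 CPM in D2. The B6 libraries lay close together, whereas D2 replicate 1 was at 23.8% of the B6 mean and D2 replicate 3 at 6.67%. The means were 35.4 ± 0.494 CPM in B6 against 4.88 ± 3.16 CPM in D2 (SD of 3 libraries), with a log2 fold change of -2.90 ± 0.22 (adjusted p = 8.23e-08). Without D2 replicate 1 the log2 fold change was -3.51. DESeq2 gave Fbln1 a wider standard error, 0.52 around a log2 fold change of -2.86. No other annotated gene overlaps Fbln1.

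Fbln2 (chromosome 6, 91212455 to 91272540) encodes fibulin-2, a close relative that also binds fibrillin and elastin. Its level was 0.578, 0.698 and 1.61 CPM in B6 and 0.970, 0.645 and 0.978 CPM in D2. B6 replicate 3 was the highest of the 6 libraries with 50 counts, and the strains overlapped (log2 fold change -0.09 ± 0.34, adjusted p = 0.877). At 21 to 50 counts per library the standard error was larger than the estimate, and the sign changed without B6 replicate 3 (0.44), without D2 replicate 2 (0.08) and with limma-voom (0.05).

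Lox (chromosome 18, 52516067 to 52529867) encodes lysyl oxidase, the copper enzyme that cross-links elastin and collagen. Its counts were 12, 12 and 13 for B6 and 6, 6 and 4 for D2, which did not pass the filter on low counts. By CPM its D2 libraries lay below its B6 libraries, at 0.115 to 0.208 against 0.277 to 0.418 CPM. In the fit without the filter its log2 fold change was -0.93 ± 0.47 (adjusted p = 0.161), so a difference was not detectable at this depth. Loxl1 (chromosome 9, 58287738 to 58313186) encodes a lysyl oxidase that, in mice, renews elastic fibres in adult tissue, and variants of the human gene are associated with exfoliation glaucoma. Its level was 4.55, 4.60 and 4.31 CPM in B6 and 4.54, 3.17 and 3.28 CPM in D2. D2 replicate 1 lay within the B6 range and the other D2 libraries below it (log2 fold change -0.30 ± 0.14, adjusted p = 0.110). Without D2 replicate 1 Loxl1 passed the test (log2 fold change -0.48 ± 0.13, adjusted p = 0.0119).

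**Figure D2:**
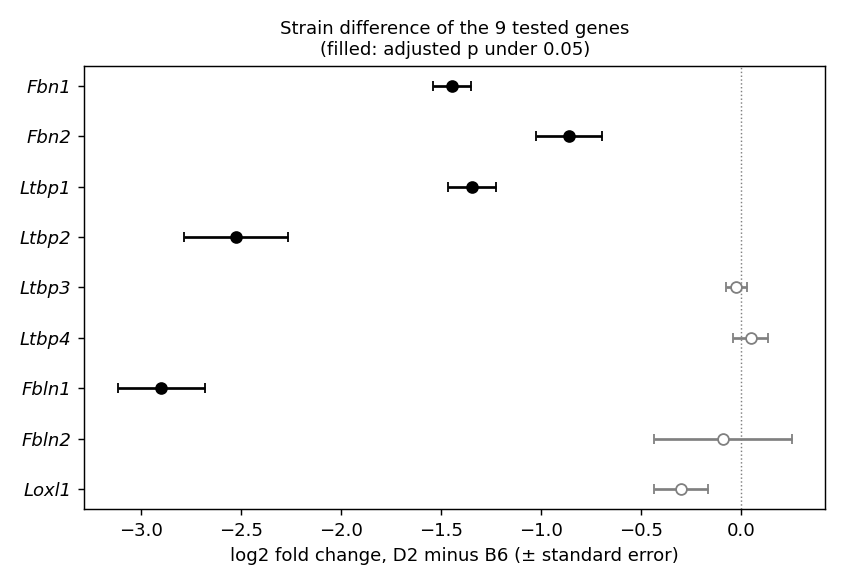
The horizontal axis gives the log2 fold change of D2 against B6, with its standard error as the bar, for the 9 tested genes, and filled points mark an adjusted p under 0.05. Fbln1 at -2.90 and Ltbp2 at -2.53 lie farthest from 0, Fbn1, Ltbp1 and Fbn2 follow between -1.45 and -0.86, and the open points of Ltbp3 and Ltbp4 lie within 0.05 of 0.

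Because 3 of the members that fell have RefSeq promoter windows clear of annotated exons, their sequence is shown beside that of Ltbp3, which did not pass. Of the 10 members, 7 had an entry in the RefSeq table (build GRCm38.p6). Each run is given 5′ to 3′ on the strand of the gene, from 250 to 51 bases before its most upstream start in that table. Capitals mark the letters CAGAC or their reverse complement GTCTG, a short motif that SMAD proteins, the transcription factors of the TGF-beta pathway, are known to bind.
Ltbp1, chr17:75005279-75005478, plus strand: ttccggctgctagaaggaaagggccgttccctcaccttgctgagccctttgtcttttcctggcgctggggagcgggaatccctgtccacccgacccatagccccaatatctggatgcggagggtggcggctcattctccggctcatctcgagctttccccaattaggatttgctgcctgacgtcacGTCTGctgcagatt
Ltbp2, chr12:84876542-84876741, minus strand: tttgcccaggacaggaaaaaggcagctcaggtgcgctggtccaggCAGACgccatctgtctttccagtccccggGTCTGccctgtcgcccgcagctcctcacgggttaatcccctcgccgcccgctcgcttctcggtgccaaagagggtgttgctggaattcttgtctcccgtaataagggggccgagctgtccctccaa
Fbln1, chr15:85205699-85205898, plus strand: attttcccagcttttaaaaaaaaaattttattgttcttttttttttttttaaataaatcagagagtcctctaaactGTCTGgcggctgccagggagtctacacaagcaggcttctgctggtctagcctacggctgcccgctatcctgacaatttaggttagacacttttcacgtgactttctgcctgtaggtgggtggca
Ltbp3, chr19:5740650-5740849, plus strand: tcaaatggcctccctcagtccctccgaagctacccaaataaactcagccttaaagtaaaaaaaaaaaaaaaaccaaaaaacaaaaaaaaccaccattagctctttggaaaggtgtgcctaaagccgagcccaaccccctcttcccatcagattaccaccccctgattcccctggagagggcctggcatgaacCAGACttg
The motif was found on either strand, with no overlap with the other motifs searched, 2 times in the Ltbp2 window and 1 time in each of the other 3 shown. It was in none of the windows of Fbn1, which fell, Ltbp4 and Fbln2, which overlap annotated exons and are not printed, so that 4 of 7 windows held it. Windows of the same length held it at 35.8% of the 32851 starts in the table, and the Ltbp3 window held it as well. The longer SMAD element GTCTAGAC (0.155% of windows) and the TATA box TATAAA (9.14%) were in none of the 4 windows shown. In these 4, the GC box GGGCGG (24.6% of windows) was found 1 time, in Ltbp2, and CCAAT (28.4%) 2 times, in Ltbp1. GC content was 58.5% for Ltbp1, 62% for Ltbp2, 42% for Fbln1 and 46.5% for Ltbp3, against a median of 51.5% over all windows. These matches are a description of letters and not of bound sites.

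Per kilobase of exon, the order of the genes differed between the strains. In B6, Fbln1 had 8.10 ± 0.113 CPM per kilobase (SD, n = 3), followed by Fbn1 at 4.13 ± 0.126, Ltbp3 at 3.43 ± 0.165 and Ltbp1 at 1.48 ± 0.0292 CPM per kilobase. Ltbp2 at 1.41 ± 0.177 and Loxl1 at 1.36 ± 0.0475 CPM per kilobase came next, and neighbours from Ltbp1 to Loxl1 overlapped in their libraries. Ltbp4 stood at 0.999 ± 0.0550, Fbn2 at 0.274 ± 0.0291, Fbln2 at 0.151 ± 0.0883 and Lox at 0.0687 ± 0.0163 CPM per kilobase, with Fbn2 and Fbln2 overlapping. In D2, Ltbp3 was the highest at 3.37 ± 0.170 CPM per kilobase and did not overlap Fbn1, the next at 1.52 ± 0.310. Fbn1, Fbln1 at 1.12 ± 0.722, Loxl1 at 1.11 ± 0.231 and Ltbp4 at 1.03 ± 0.0299 CPM per kilobase overlapped from neighbour to neighbour. Ltbp1 followed at 0.585 ± 0.144, then Ltbp2 at 0.252 ± 0.162, Fbn2 at 0.152 ± 0.0341, Fbln2 at 0.136 ± 0.0298 and Lox at 0.0354 ± 0.0101 CPM per kilobase. From Ltbp2 to Fbln2 neighbours overlapped in D2.

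Of the summed level per kilobase of the 10 genes, Fbln1 made up 37.8% ± 0.805 in B6 and 11.3% ± 5.27 in D2 (SD, n = 3). Ltbp3 made up 16.0% ± 0.308 in B6 and 36.8% ± 4.89 in D2. The sum was 20.9 to 22.1 CPM per kilobase in the B6 libraries and 7.76 to 11.2 in the D2 libraries. Fbn1 and Ltbp3 changed places in the B6 order, and Ltbp4 and Loxl1 in the D2 order, when the length of the longest transcript was used.

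**Figure D3:**
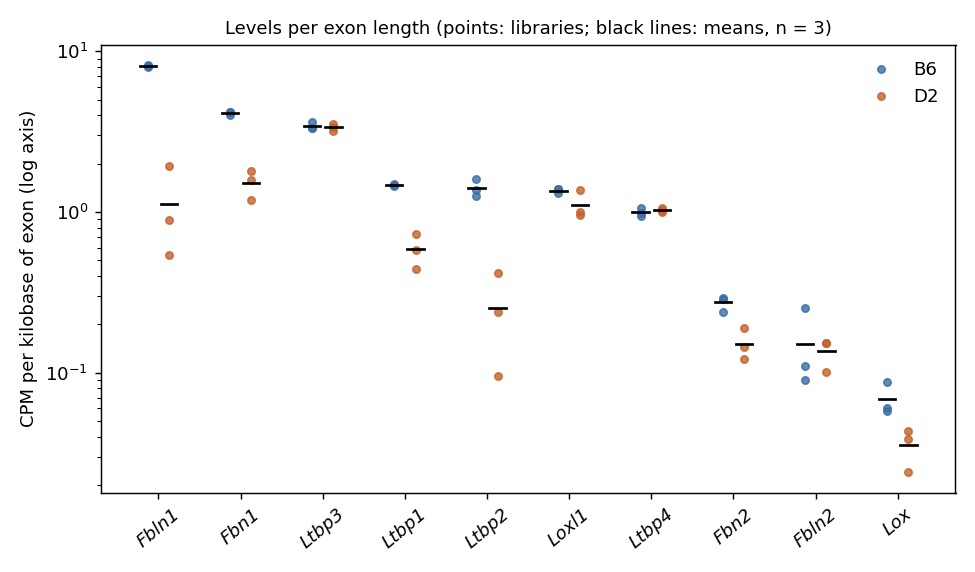
Points give CPM per kilobase of exon (vertical log axis) in each library, B6 in blue and D2 in orange, and black lines the means, for the 10 genes in their B6 order. Fbln1 stands at 8.10 in B6 and 1.12 in D2, and Ltbp3 at 3.43 and 3.37.

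Ratios of related genes within a library do not depend on how libraries are scaled. The log2 ratio of Fbn2 to Fbn1 was -3.80 ± 0.11 in B6 and -3.21 ± 0.11 in D2 (SD, n = 3), so that the fibrillin-2 transcript was scarcer than that of fibrillin-1 in both strains, with a difference of 0.59 between them. The log2 ratio of Ltbp2 to Ltbp1 was -0.45 ± 0.15 in B6 and -1.82 ± 0.72 in D2. Fbln2 to Fbln1 stood at -5.35 ± 0.77 in B6 and -2.32 ± 0.95 in D2, and Loxl1 to Lox at 3.80 ± 0.38 and 4.46 ± 0.37. For these 4 ratios the strains did not overlap. This gives p = 0.1 in a two-sided exact permutation test, the smallest that 3 against 3 libraries allow (0.125 after adjustment over 5 ratios). For Loxl1 to Lox the gap was narrow, from 4.04 in the highest B6 library to 4.10 in the lowest D2 library. That ratio rests on 4 to 13 counts of Lox per library. Ltbp3 to Ltbp4 differed by -0.07, from 2.27 ± 0.03 in B6 to 2.20 ± 0.06 in D2 (exact permutation p = 0.3, adjusted 0.3), and its libraries overlapped.

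The D2 libraries differed from each other in the same way for most of the members. D2 replicate 1 was the highest and D2 replicate 3 the lowest of the 3 D2 libraries in 7 of the 10 genes, among them all 5 that fell, while 14.8% of all tested genes had this pattern. The pattern was also present in 6 of 8 markers of ciliary epithelium, 4 of 4 of smooth muscle, 5 of 6 of fibroblasts and 5 of 6 of astrocytes and optic nerve. It was present in 0 of 5 pericyte markers, 0 of 6 each for Müller glia, retinal pigment epithelium and lens, 1 of 6 rod markers and 3 of 7 endothelial markers. The fibroblast marker Dcn had 107, 12 and 10 counts in D2 replicates 1 to 3, and the smooth muscle myosin Myh11 222, 87 and 62. Dcn had 160 counts in B6 replicate 2, 39 in replicate 1 and 35 in replicate 3. Of the 5 genes that fell, Fbn1, Fbn2, Ltbp1 and Ltbp2 were at their lowest B6 level in replicate 2. Fbln1 was not, at 34.9, 35.4 and 35.9 CPM in B6 replicates 1 to 3. The differences were small for Fbn1, at 51.1, 48.3 and 50.8 CPM. The part of fibroblasts in these levels was not tested.

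Markers of other tissues were read beside all tested genes, of which 15.3% fell and 14.5% rose in D2. The lists are short, so a count of 1 or 2 genes says little beside these shares. The rod markers had the highest sum of the marker lists, at 50605 to 52310 CPM in B6 against 44267 to 46367 CPM in D2. Of 8 ciliary epithelium markers, a list that holds genes whose falls were known beforehand, 7 fell and none rose. The ion transporter Slc26a4 fell to 11.4%, 7.98% and 3.95% of its B6 mean in D2 replicates 1 to 3 and the secreted glutathione peroxidase Gpx3 to 8.05%, 6.46% and 5.83%. Zic1, a transcription factor gene, was at 75.4%, 56.9% and 51.2%, and the water channel gene Aqp1 at 96.0%, 93.8% and 98.6%. The summed level of this list was 239 to 250 CPM in B6 against 177 to 190 CPM in D2. The summed fibroblast markers overlapped between strains at 24.7 to 30.5 CPM in B6 against 23.4 to 33.4 CPM in D2, where 1 of 5 tested rose and none fell. Smooth muscle markers also overlapped, at 10.5 to 16.6 and 8.83 to 22.8 CPM, with 1 of 4 higher. Pericyte markers had 101 to 103 CPM in B6 against 95.2 to 102.7 CPM in D2 and endothelial markers 293 to 315 and 300 to 308 CPM, with 2 of 5 and 2 of 7 lower and, in endothelium, 1 higher. Of the pericyte markers, Cspg4 (61.5% to 64.1% of its B6 mean in the D2 libraries) and Abcc9 (60.8% to 92.0%) fell, and Rgs5 (96.0% to 104.9%) did not pass the test. Retinal pigment epithelium markers had 390 to 472 CPM in B6 against 398 to 464 CPM in D2, and none of 6 passed. Most of this sum was Rlbp1, at 305 to 345 CPM per library, which is also on the Müller glia list. Rpe65 varied within strains, at 7.97, 16.7 and 28.7 CPM in B6 and 7.80, 23.2 and 5.95 CPM in D2. Ttr and Rgr varied within strains too, Rdh5 and Best1 less. Lens markers varied within strains, at 2.29 to 29.6 CPM in B6 against 4.58 to 12.6 CPM in D2, and astrocyte and optic nerve markers stood at 63.7 to 71.4 and 65.8 to 105 CPM, with 2 of 5 tested higher. Müller glia markers had 4243 to 4670 CPM in B6 against 3982 to 4355 CPM in D2, with 1 of 6 higher and 1 lower. No marker of these lists was at 0 in any library. The part of these tissues in the falls of the microfibril genes was not tested.

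**Figure D4:**
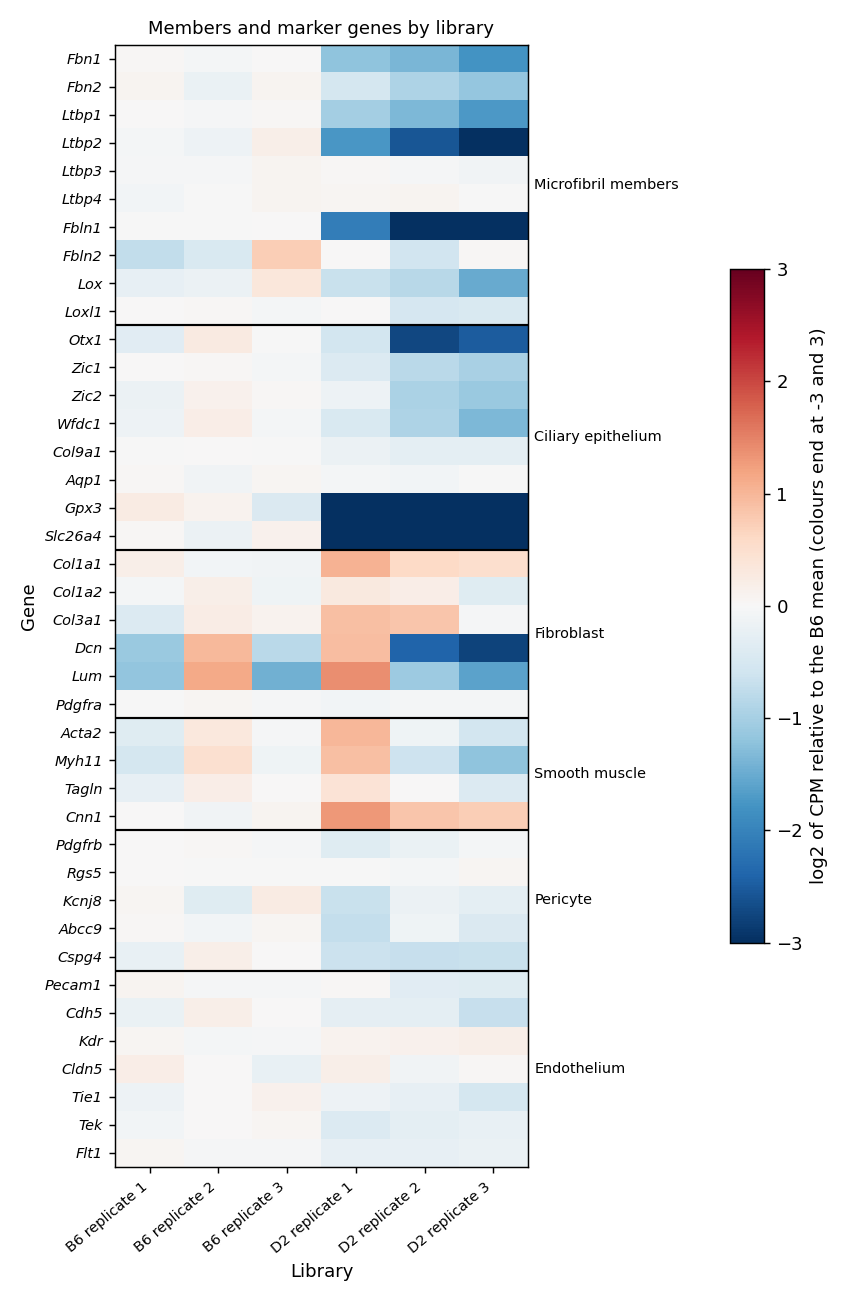
Colours give the log2 of each gene's CPM relative to its B6 mean in the 6 libraries, for the 10 genes and for markers of 5 cell types. The D2 columns are blue for Fbn1, Ltbp1, Ltbp2 and Fbln1 and for Gpx3, Slc26a4 and Otx1 of the ciliary list. Other genes are blue there too, such as Fbn2 (68.9%, 52.6% and 44.5% of its B6 mean), Lox (63.4%, 56.2% and 35.1%) and the pericyte marker Cspg4. Dcn, Lum and Myh11 are red in D2 replicate 1 and blue in D2 replicates 2 and 3. Aqp1 of that list stays near white. The fibroblast markers are not alike across D2 replicates 1 to 3. Dcn stands at 189%, 18.8% and 14.7% of its B6 mean, and Pdgfra at 94.6%, 95.2% and 96.6%.

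Among 35 other genes listed for elastic fibres and microfibrils, 12 of 31 tested fell, 5 rose and 14 did not pass. The rises include Mfap1a and Mfap1b, whose human protein is known as a part of the spliceosome. Over all tested genes, 15.3% fell and 14.5% rose, and this list was chosen with earlier results of these data known. The median log2 fold change of the list was -0.04, against 0.0046 over all tested genes. Without D2 replicate 3 the list had 9 falls and 2 rises. Vcan, which encodes versican, a proteoglycan that binds fibrillin and hyaluronan, fell from 18.3 ± 2.23 CPM in B6 down to 4.06 ± 1.59 CPM in D2 (SD of 3 libraries), with a log2 fold change of -2.19 ± 0.17 (adjusted p = 1.18e-07). Efemp1, a fibulin whose human gene is mutated in an inherited macular drusen disease, fell from 54.2 ± 2.05 to 26.2 ± 3.70 CPM (log2 fold change -1.06 ± 0.07, adjusted p = 2.58e-08). Fbln5, a fibulin that tethers elastin to cells, fell 2.27-fold and Fbln7 2.02-fold. Mfap4, a microfibril-associated glycoprotein, fell 2.29-fold (log2 fold change -1.20 ± 0.27, adjusted p = 0.00386). Its value was -1.84 without D2 replicate 1, and with DESeq2 it missed the threshold (adjusted p = 0.0760). Its adjusted p ran from 6.04e-07 to 0.0760 across alternatives. The cross-linking enzyme Loxl2 fell 1.46-fold, the procollagen processing enhancer Pcolce 1.67-fold, and Loxl4 1.51-fold, the last not without D2 replicate 3 (adjusted p = 0.0650, and 0.00732 to 0.0650 across alternatives).

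The 3 genes of that list with the highest mean CPM, which is not scaled by gene length, did not fall. Mfap1a rose 1.18-fold (log2 fold change 0.24 ± 0.04, adjusted p = 0.000163) and Mfap1b 1.08-fold (log2 fold change 0.10 ± 0.03, adjusted p = 0.0338). These near-identical copies may share reads, and despite their name the human protein is known as a part of the spliceosome. The call of Mfap1b was lost with the replicate number as a block (adjusted p = 0.0656) and without any 1 library other than D2 replicate 1 (0.0509 to 0.121). Mfap3l had a log2 fold change of 0.10 ± 0.04 (adjusted p = 0.0763). Elastin itself, Eln, named here outside the rule for its role, had 5.96 ± 0.405 CPM in B6 against 6.69 ± 0.269 CPM in D2 (SD of 3 libraries), with a log2 fold change of 0.17 ± 0.09 (adjusted p = 0.191).

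In the TGF-beta pathway, 10 of 27 tested genes fell, 1 rose and 16 did not pass, with a median log2 fold change of -0.13. Over all tested genes, 15.3% fell and 14.5% rose. The pathway list was chosen with earlier results of these data known. In this list DESeq2 called 5 falls and 1 rise, as did the fit without D2 replicate 3. Nrros, which anchors latent TGF-beta on microglia, fell 3.51-fold, from 4.73 ± 1.11 CPM in B6 down to 1.36 ± 0.266 CPM in D2 (SD of 3 libraries), with a log2 fold change of -1.81 ± 0.20 (adjusted p = 4.41e-06). Mmp9, a gelatinase that can release TGF-beta, fell 1.87-fold (log2 fold change -0.90 ± 0.08, adjusted p = 3.35e-07). Ctgf, a matrix gene that TGF-beta is known to induce, fell 1.97-fold (log2 fold change -0.98 ± 0.11, adjusted p = 6.82e-06). The matrix proteoglycan gene Bgn fell 1.66-fold with overlapping libraries (adjusted p = 0.0305), a call lost with DESeq2 (0.0563) and without B6 replicate 2 (0.137), B6 replicate 3 (0.0683), D2 replicate 2 (0.0957) or D2 replicate 3 (0.139). Smad4, the shared partner of the receptor-regulated SMAD proteins, rose 1.27-fold (log2 fold change 0.35 ± 0.03, adjusted p = 1.47e-06). Of the other abundant genes, the integrin subunit Itgav, whose heterodimers activate latent TGF-beta, had a log2 fold change of -0.03 ± 0.05 (adjusted p = 0.668), and the SMAD repressor Skil -0.08 ± 0.04 (adjusted p = 0.132).

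The authors' deposited table lists 9 of the 10 genes, without Lox, and marks the same 5 genes, Fbn1, Fbn2, Ltbp1, Ltbp2 and Fbln1, as differentially expressed. In the authors' deposited table the scaled mean score of Fbln1 was 9.12 ± 0.107 in B6 and 7.06 ± 2.42 in D2 (standard error as deposited). That of Ltbp2 was 7.93 ± 0.587 in B6 and 6.15 ± 2.48 in D2. In both genes the D2 standard error was larger than the difference of the scores, 2.06 for Fbln1 and 1.78 for Ltbp2. The authors' deposited table gives Loxl1 a false discovery rate of 0.0320 without marking it.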

How the data were processed

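For 6 libraries the authors deposited gene-level read counts that had not been normalized. Per the labels, these were Illumina stranded total RNA libraries of retina. Per the submitters' processing notes, the build was mm10 and the tools included STAR, SAMtools, FastQC and edgeR. The sources at hand give no tool versions, counter, annotation or strand setting. The authors also deposited a table of strain mean scores on a scaled axis with a false discovery rate, an adjusted p-value whose test is not named there.

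Libraries were grouped by the strain in their titles and held 29417002 to 43719666 counts. Counts were filtered with filterByExpr (edgeR 4.0.16, R 4.3.3), scaled with TMM and tested with the quasi-likelihood test, D2 minus B6, with Benjamini-Hochberg adjustment over 18588 genes and a threshold of 0.05. A count of 0 would allow 0.0686 to 0.102 CPM (3 counts), for counting error only. Chi-square per degree of freedom between libraries of a strain was 6.33 to 24.7, above counting noise in every pair, so none looked like 1 library deposited again. This does not show that the libraries came from separate mice. Exon lengths and positions came from GENCODE M21 and promoters from RefSeq. Alternatives used DESeq2 1.42.0, limma 3.58.1, other scalings and filters, a replicate block and each library left out. Leaving libraries out for ratios and ranks was added after seeing the data. The members and lists were chosen with earlier results of these data known. List genes were named by a rule: up to 8 called genes with an absolute log2 fold change of at least 0.5, taken in order of adjusted p, plus the 3 with the highest mean CPM. Some items are not reported here.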

Additional observations from a re-analysis of the deposited data

How the results depend on the processing

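Under the 13 alternatives, 5 members were called in each, with 6 without D2 replicate 1, where Loxl1 passed. The range of Loxl1 with 1 library left out was -0.48 to -0.21. Calls over all tested genes ranged from 4502 to 5774. The count of other elastic fibre genes called, 17, was 11 to 16 with 1 library left out, and that of TGF-beta pathway genes, 11, was 6 to 11, and 6 with DESeq2. Signs changed only for genes that did not pass: Ltbp3 ranged from -0.062 to 0.012, Fbln2 from -0.36 to 0.44 and Itgav from -0.11 to 0.013 with 1 library left out, and limma-voom gave Fbln2 0.050. With longest transcript lengths, the B6 ranks of Fbn1 and Ltbp3 became 3 and 2, and the D2 ranks of Ltbp4 and Loxl1 became 4 and 5. With 1 library left out, Ltbp2 and Loxl1 ranked 5 to 6 in B6, and Ltbp4 and Fbln1 ranked 3 to 5 in D2. The cause of these shifts was not tested. The replicate numbers were taken from the titles. Deviations of same-numbered libraries from their strain mean correlated at 0.14, 0.07 and -0.03, and B6 replicate 3 correlated best with D2 replicate 2 (0.16). These values cannot show whether same-numbered libraries were handled together, since the deviations of the 3 libraries of a strain are tied to each other. With the replicate block, 5093 genes, 5 members, 15 other elastic fibre genes and 10 TGF-beta pathway genes were called. Depth limits Lox and Fbln2, with 4 to 50 counts per library. Summing rows of a gene was not run, since each member had 1 row.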
